A study of Arabidopsis thaliana with 9 samples.

Results

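Transcripts of the plastid genome were examined in roots of Arabidopsis thaliana, the model plant thale cress, of the Col-0 ecotype. Members were chosen by their identifier and by depth alone. They are the genes of the count table whose identifier begins with ATCG, the prefix of the plastid genome, and whose counts over the 9 libraries sum to at least 10. This rule kept 100 of 133 plastid entries, in a table of 28775 genes. Of the other 33 entries, 17 had no count in any library and 16 had a sum between 1 and 9. The entries just outside the minimum were ATCG00890, ATCG01190 and ATCG01200, each with a sum of 9. Those just inside were ATCG01250 with 11, ATCG01280 with 12 and ATCG00110 with 21. Of the members, 95 had counts in every library and 5 were at 0 in at least 1 library.

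The series asks how roots respond to carbenicillin, a beta-lactam antibiotic that blocks the building of the bacterial cell wall. Each of the 3 groups had 3 libraries. In the 1 day group, seedlings spent 6 days on plates without the antibiotic and 1 day on plates with 10 µg/mL. In the 7 day group, seedlings were on carbenicillin at 10 µg/mL for all of the 6 days on the first plate and 1 day on the second. Mock seedlings followed the same 6 and 1 days of plates without it. All were Col-0 seedlings, grown under 16 h of light and 8 h of dark at 24 °C, so the roots of all groups came from light-grown plates. Nothing in the labels says whether the libraries of a group came from separate sets of plants, so p-values measure the spread between these libraries, which may be technical.

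The plastid genome of plants is a small circular DNA inherited from a cyanobacterium. It encodes parts of the photosystems, the NADH dehydrogenase-like complex, the ribosome and a bacterial-type RNA polymerase, as well as transfer and ribosomal RNAs. This plastid-encoded polymerase (PEP) works with sigma factors and associated proteins made in the nucleus, beside a nuclear-encoded phage-type polymerase (NEP). Root plastids are mostly non-green, and transcribe the same genome as leaf chloroplasts.

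Neither the count table nor the gene table of the reference pairs the plastid identifiers with gene names. For 6 members a description was found in the reference annotation's notes on similar nuclear genes. These are ATCG00670, plastid-encoded CLP P, a subunit of the plastid Clp protease; ATCG00530, a CemA-like protein related to proton extrusion; ATCG00660, ribosomal protein L20; ATCG00750, ribosomal protein S11; ATCG01310, ribosomal protein L2; and ATCG00430, given there as photosystem II reaction center protein G. The name of the last is an old one, and the protein has since been placed in the NADH dehydrogenase-like complex. The other 94 members are given by identifier, and members could not be grouped by function. ATCG00420 has a noted pseudogene in the nucleus, AT4G13285, and reads of the pair may be hard to tell apart.

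Library totals ran between 6707693 and 16088265 counts in the 6 carbenicillin libraries and between 5820675 and 15836536 in mock. The 3 shallow libraries were 1 day replicate 3, 7 day replicate 3 and mock replicate 1. Levels are in CPM, counts scaled to a common library total and then between libraries by the trimmed mean of M-values (TMM), and are not divided by gene length, so an order of genes by CPM is an order of counts and not of transcript numbers.

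The share of plastid members in the libraries did not separate the groups. In the 1 day libraries they held 2.07, 2.28 and 2.05% of all counts. In the 7 day libraries the share was 1.91, 2.04 and 2.41%. In mock it was 1.81, 2.07 and 2.00%. The 3 groups overlapped, and both the highest share, in 7 day replicate 3, and the lowest, in mock replicate 1, were in shallow libraries. The share averaged 2.13 ± 0.127% at 1 day, 2.12 ± 0.258% at 7 days and 1.96 ± 0.134% in mock (SD, n = 3 each). The difference from mock was 0.173 percentage points at 1 day (2-sided exact permutation test, p = 0.3, adjusted p = 0.6) and 0.161 percentage points at 7 days (exact permutation p = 0.5, adjusted p = 0.667). Between 7 days and 1 day it was -0.0116 percentage points (exact permutation p = 0.8, adjusted p = 0.8). With the carbenicillin libraries pooled, the share was 2.13 ± 0.182% (SD, n = 6) against 1.96 ± 0.134% in mock (n = 3), a difference of 0.167 percentage points (exact permutation p = 0.214, adjusted p = 0.6). Adjustment was over these 4 comparisons. With 3 libraries against 3 the smallest p this test can give is 0.1, and with 6 against 3 it is 0.0238. In whole roots, a difference in the number of plastids or plastid-rich cells and one in plastid RNA per cell cannot be told apart. Without the 3 shallow libraries the difference from mock was 0.139 percentage points at 1 day and -0.0579 at 7 days.

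**Figure D1:**
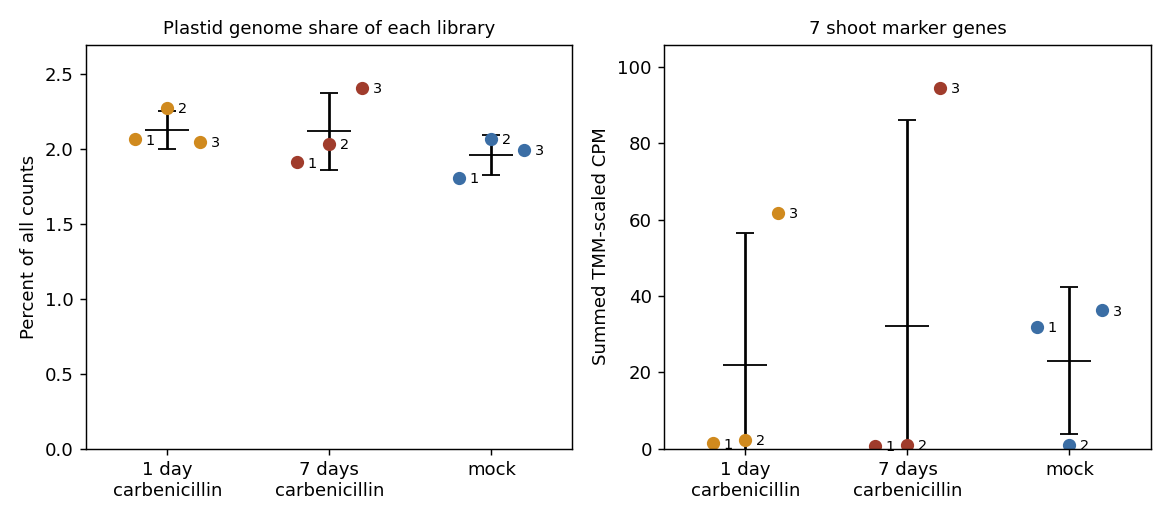
Left, the percent of all counts in the 100 plastid members in each library; right, the summed TMM-scaled CPM of 7 shoot marker genes in the same libraries. Points are libraries with their replicate number, and bars are the mean ± SD of 3 libraries. The plastid share lies between 1.81 and 2.41% with overlapping groups, and the shoot markers are at 31.9 CPM or above in 4 libraries and at 2.33 CPM or below in the other 5.

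The plastid transcript pool was uneven, and in the same way in all libraries. ATCG00020 alone held 24.3% of all plastid counts and ATCG00490 held 7.74%. The 5 members with the most counts held 45.0%, the 10 highest 58.9% and the 20 highest 75.7%, and 7 members sufficed for 50%. The levels fell into an upper and a lower set. There were 79 members with a mean of at least 10 CPM, of which 41 lay at 100 CPM or more and 38 lay between 10 and 100 CPM. The lowest of the upper set averaged 10.5 CPM and the next member below it 2.35 CPM. The lower 21 members, down to a mean of 0.0888 CPM, held 0.0641% of the plastid counts in all.

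The order of members by count was nearly the same in every library. Over the 100 members, Spearman's rho between 2 libraries lay between 0.985 and 0.997 for the 36 pairs of libraries, and within the upper 79 members between 0.978 and 0.998. These values are across genes, which share library and gene length and are not independent replicates. Of the 10 highest members of each library, 9 were the same in all 9 libraries, and of the 5 highest, 4 were.

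ATCG00020 had the highest level. It was at 4885, 6369 and 4380 CPM in the 1 day libraries, 4627, 4497 and 5882 CPM in the 7 day libraries and 3869, 4735 and 5397 CPM in mock. Its share of the plastid counts was 24.1, 27.6 and 21.7% at 1 day, 23.8, 22.1 and 24.3% at 7 days and 21.0, 23.0 and 27.3% in mock. The groups overlapped, and the spread within each was wider than the differences between their means. The log2 fold change against mock was 0.16 at 1 day (SE 0.21, 95% interval -0.31 to 0.62, edgeR adjusted p = 0.881) and 0.10 at 7 days (SE 0.21, interval -0.36 to 0.56, edgeR adjusted p = 1.00).

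ATCG00490 was at 1463, 1630 and 1890 CPM in the 1 day libraries, 1460, 1467 and 2257 CPM in the 7 day libraries and 1525, 1462 and 1707 CPM in mock. Here replicate 3 was the highest library in each of the 3 groups. The log2 fold change against mock was 0.09 at 1 day (SE 0.19, interval -0.34 to 0.51) and 0.14 at 7 days (SE 0.19, interval -0.28 to 0.57), with edgeR adjusted p-values of 0.936 and 1.00. Without the 3 shallow libraries both values lay below 0, at -0.04 at 1 day and -0.11 at 7 days.

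Among the described members, the Clp protease subunit ATCG00670 was the most abundant by count. Its level was 921, 1112 and 847 CPM in the 1 day libraries, 912, 944 and 843 CPM in the 7 day libraries and 800.0, 915 and 907 CPM in mock. The 1 day and 7 day libraries overlapped with mock, and 1 day replicate 2 was the highest of the 9. Against mock, the log2 fold change was 0.14 at 1 day (SE 0.14, interval -0.18 to 0.45) and 0.04 at 7 days (SE 0.14, interval -0.27 to 0.35).

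The CemA-like member ATCG00530 was at 203, 234 and 191 CPM in the 1 day libraries, 200.4, 227 and 186 CPM in the 7 day libraries and 158, 217 and 184 CPM in mock. CemA is a protein of the chloroplast envelope. Its level was lowest in mock replicate 1, and the other mock libraries overlapped with or lay next to the treated ones. Set against mock, it had a log2 fold change of 0.17 at 1 day (SE 0.14, interval -0.14 to 0.48) and 0.13 at 7 days (SE 0.14, interval -0.18 to 0.44).

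Transcripts of 3 ribosomal protein genes were described, from both subunits. L20 (ATCG00660), of the large subunit, was at 134, 140.1 and 114 CPM in the 1 day libraries, 127, 138 and 138 CPM in the 7 day libraries and 143, 137 and 118 CPM in mock. S11 (ATCG00750), of the small subunit, was at 103, 92.3 and 106 CPM in the 1 day libraries, 115, 123 and 105 CPM in the 7 day libraries and 106, 103 and 88.9 CPM in mock. Neither gene separated the groups. The log2 fold change of L20 against mock was -0.04 at 1 day (SE 0.12, interval -0.29 to 0.22) and 0.02 at 7 days (SE 0.12, interval -0.24 to 0.27). That of S11 was 0.01 at 1 day (SE 0.11, interval -0.23 to 0.26) and 0.20 at 7 days (SE 0.11, interval -0.04 to 0.45).

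The L2 entry (ATCG01310), also of the large subunit, lay in the lower set. It was at 0.286, 0.126 and 1.31 CPM in the 1 day libraries, 0.431, 0.402 and 1.199 CPM in the 7 day libraries and 1.75, 0.691 and 0.942 CPM in mock, from a sum of 71 counts. The highest library of each group was a shallow one. The gene for L2 lies in the inverted repeat of plant plastid genomes, where each gene has an identical copy, so the counting of its reads is uncertain. Its log2 fold change against mock was -1.13 at 1 day (SE 0.72, interval -2.72 to 0.46, edgeR adjusted p = 0.778) and -0.77 at 7 days (SE 0.70, interval -2.31 to 0.77, edgeR adjusted p = 1.00), values that this depth does not resolve.

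ATCG00430, the protein G entry, was at 27.0, 28.3 and 26.8 CPM in the 1 day libraries, 26.1, 27.3 and 33.1 CPM in the 7 day libraries and 29.4, 27.6 and 24.1 CPM in mock. The 1 day libraries lay close together, inside the range of mock. Against mock, the log2 fold change was 0.02 at 1 day (SE 0.12, interval -0.25 to 0.29) and 0.09 at 7 days (SE 0.12, interval -0.18 to 0.36). No described member passed an edgeR adjusted p of 0.05 at either time.

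**Figure D2:**
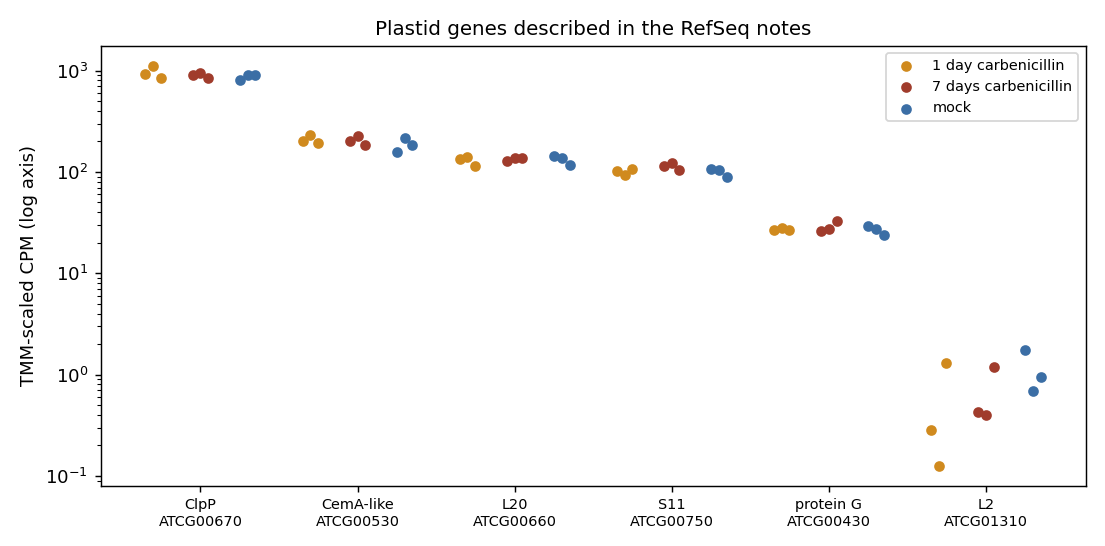
TMM-scaled CPM on a log axis of the 6 plastid genes with a description in the reference's notes; each point is 1 library, 3 per group. In the 5 genes above 10 CPM the groups overlap, and L2, near 1 CPM or below, spreads the most within groups.

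In the comparison of 1 day with mock, 88 of the 100 members had enough counts for the test, among 19580 genes tested. The other 12 had at most 58 counts in all. None of the 88 was called at an edgeR adjusted p under 0.05, where 0.158% of all tested genes were called. The lowest adjusted p of a member was 0.665. At an unadjusted p under 0.05 there was 1 member, 1.14% of the 88, against 7.45% of all tested genes, and DESeq2 also called 0 members. The log2 fold changes were above 0 in 73 members and below 0 in 15, so 83.0% lay above 0, against 49.7% of all tested genes. Their median was 0.11, against -0.00 over all tested genes, and they ran between -1.13 and 0.59. The 95% interval lay within 2-fold in either direction for 78 members and within 1.5-fold for 65.

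The member with the lowest p at 1 day was ATCG00200, at 3.44, 2.84 and 2.48 CPM in the 1 day libraries and 1.23, 2.51 and 1.82 CPM in mock. The groups overlapped at the edge, and its log2 fold change was 0.59 (SE 0.27, unadjusted p = 0.0485, edgeR adjusted p = 0.665). The next higher ones were ATCG00650 with a log2 fold change of 0.30, ATCG01010 with 0.31, ATCG00080 with 0.38 and ATCG00700 with 0.42. Below 0, the members with the lowest p after L2 were ATCG00160 with -0.14, ATCG00640 with -0.11, ATCG00620 with -0.25 and ATCG01110 with -0.06. In 3 of the 88 tested members, ATCG00080, ATCG00300 and ATCG01100, all 1 day libraries lay above all mock libraries, and in none did all lie below. That is 3.41% of the 88, against 6.52% of all tested genes with groups that did not overlap in that direction; 5.79% of all tested genes lay wholly below. These lists of separate members were read from the values. Among the 12 members with too few counts for the test, the groups also lay apart in ATCG00460 (1 day above mock), ATCG01230 (7 days above mock and above 1 day) and ATCG00320 (7 days below mock). These have at most 58 counts each over all libraries. No share over other genes with so few counts was computed, so they are not read as differences.

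In the comparison of 7 days with mock, again 0 of 88 members were called by edgeR, with 0% of all tested genes called. An unadjusted p under 0.05 was reached by 2 members, 2.27%, against 4.44% of all tested genes, and DESeq2 called 0. The log2 fold change was above 0 in 80 members and below 0 in 8, so 90.9% lay above 0, against 50.3% of all tested genes. The median was 0.14, against 0.00 over all tested genes, with a range of -0.91 to 0.74. Without the 3 shallow libraries the median at 7 days was 0.05, with 59 of 88 above 0. The interval lay within 2-fold for 80 members and within 1.5-fold for 68. The comparisons of 1 day and of 7 days share the mock libraries, so their directions are not separate observations.

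The 2 members with an unadjusted p under 0.05 at 7 days were ATCG01080 and ATCG00760. ATCG01080 was at 48.9, 57.3 and 57.0 CPM in the 7 day libraries and 38.7, 50.1 and 43.3 CPM in mock, with a log2 fold change of 0.30 (SE 0.12, unadjusted p = 0.0291, edgeR adjusted p = 1.00). ATCG00760 was at 64.7, 63.3 and 60.4 CPM in the 7 day libraries and 51.7, 57.1 and 53.6 CPM in mock, with a log2 fold change of 0.21 (SE 0.09, unadjusted p = 0.0354, edgeR adjusted p = 1.00). The groups overlapped in ATCG01080 and not in ATCG00760. The next higher ones were ATCG01100 with 0.22 and ATCG01070 with 0.27, beside S11. Below 0, the lowest p-values were those of ATCG00310 with -0.91, ATCG00450 with -0.10, ATCG00010 with -0.30 and ATCG00400 with -0.09, beside L2. All 7 day libraries lay above all mock libraries in 2 of the 88 tested members, ATCG00760 and ATCG01100, or 2.27% of the 88, against 4.62% of all tested genes; in 0 of the tested members all lay below, against 4.53% of all tested genes.

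With all carbenicillin libraries set against mock, 0 of 88 members were called by edgeR, against 0.117% of all tested genes, and the lowest adjusted p was 0.594. By DESeq2 the count was also 0. There was 1 member with an unadjusted p under 0.05, 1.14% against 6.98% of all tested genes: ATCG01080, with a log2 fold change of 0.26 (SE 0.10, unadjusted p = 0.0280, edgeR adjusted p = 0.594). After it came ATCG00650 with 0.26, ATCG01010 with 0.28, ATCG00760 with 0.15 and ATCG01100 with 0.18. Below 0, after L2 with -0.95, were ATCG00310 with -0.28, ATCG00640 with -0.07, ATCG00010 with -0.20 and ATCG00160 with -0.03. The median over the 88 was 0.12, and 80 lay above 0 and 8 below, 90.9% above 0 against 49% of all tested genes. ATCG01100 was the 1 tested member in which all 6 carbenicillin libraries lay above all mock libraries, at 169, 169.6 and 169 CPM at 1 day, 165.4, 185 and 187 CPM at 7 days and 156, 165.1 and 140.5 CPM in mock. That is 1.14% of the members, against 2.06% of all tested genes; in 0 tested members all 6 lay below, against 1.96% of all tested genes.

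Between 7 days and 1 day on carbenicillin, edgeR and DESeq2 each called 0 members, and 0% of all tested genes were called by edgeR. An unadjusted p under 0.05 was reached by 1 member, 1.14%, against 2.03% of all tested genes. The log2 fold change was above 0 in 53 members and below 0 in 35, 60.2% above 0 against 50.5% of all tested genes, with a median of 0.05. The member was ATCG00310, at 0.215, 0.335 and 0.899 CPM in the 7 day libraries and 0.859, 1.26 and 0.783 CPM in the 1 day libraries, with a log2 fold change of -1.26 (SE 0.54, unadjusted p = 0.0381, edgeR adjusted p = 1.00). Also below 0 were ATCG00450 with -0.33, ATCG00200 with -0.39, ATCG00700 with -0.32 and ATCG00400 with -0.23. Above 0, the lowest p-values were those of ATCG01110 with 0.23, ATCG00190 with 0.21, ATCG00240 with 0.70 and ATCG00160 with 0.21, beside S11 with 0.19. In 5 of the 88 tested members, ATCG00170, ATCG00180, ATCG00190, ATCG00240 and ATCG00760, all 7 day libraries lay above all 1 day libraries, and in 0 tested members below. That is 5.68% of the 88, against 3.06% of all tested genes that lay wholly above and 3.31% wholly below.

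**Figure D3:**
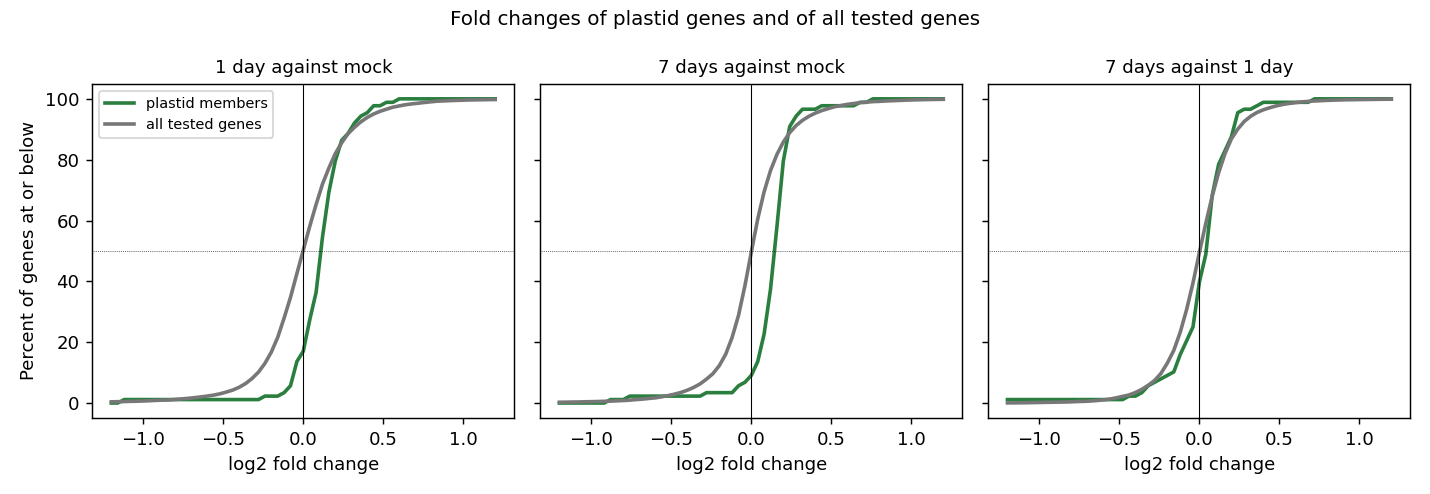
Cumulative percent of genes at or below each log2 fold change, for the 88 tested plastid members and for all 19580 tested genes, in 3 comparisons. The members' curve crosses 50% at 0.11 for 1 day against mock, 0.14 for 7 days against mock and 0.05 for 7 days against 1 day, while all tested genes cross near 0; no member passed the test.

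In the 79 members with at least 10 CPM, fold changes were small and mostly above 0. At 1 day, 69 lay above 0 and 10 below, with a median log2 fold change of 0.11 and a range of -0.14 to 0.42. At 7 days, 75 lay above 0 and 4 below, with a median of 0.14 and a range of -0.10 to 0.30. The typical standard error of 1 member, with a median of 0.14 at each time, was as large as these medians.

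The shift of the members lay in single libraries as much as in groups. As the median over the 88 tested members of the log2 level minus the gene's mean, the 1 day libraries were at 0.01, 0.11 and -0.02. The 7 day libraries were at -0.03, 0.07 and 0.16. The mock libraries were at -0.11, 0.04 and -0.20. Mock replicates 1 and 3 lay lowest, while mock replicate 2 lay inside the range of the treated libraries. Of the 79 members with at least 10 CPM, 68 were lowest in mock replicate 1 or 3. There were 33 lowest in replicate 1 and 35 in replicate 3. The highest value was in 7 day replicate 3 for 34 members, in 1 day replicate 2 for 25 and in a mock library for 6.

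Across the 9 libraries, the highest level of a member in the upper set was between 1.197 and 3.62 times its lowest, with a median of 1.48, and the coefficient of variation ran between 6.19 and 35.5% with a median of 11.4%. In 7 of them, picked out by this ratio, it was over 2. ATCG00590 had the widest ratio, at 25.8, 27.9 and 19.8 CPM at 1 day, 19.0, 25.0 and 16.3 CPM at 7 days and 7.88, 28.5 and 20.4 CPM in mock. Its lowest and its highest value were both in mock libraries. ATCG00220 was at 33.9, 38.5 and 18.1 CPM at 1 day, 15.6, 27.0 and 25.0 CPM at 7 days and 11.7, 32.2 and 23.2 CPM in mock. Of the other 5, ATCG00700, ATCG00080, ATCG01020 and ATCG00560 were lowest in mock replicate 1 and highest in 1 day replicate 2, and ATCG00290 was lowest in mock replicate 3 and highest in 7 day replicate 3.

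**Figure D4:**
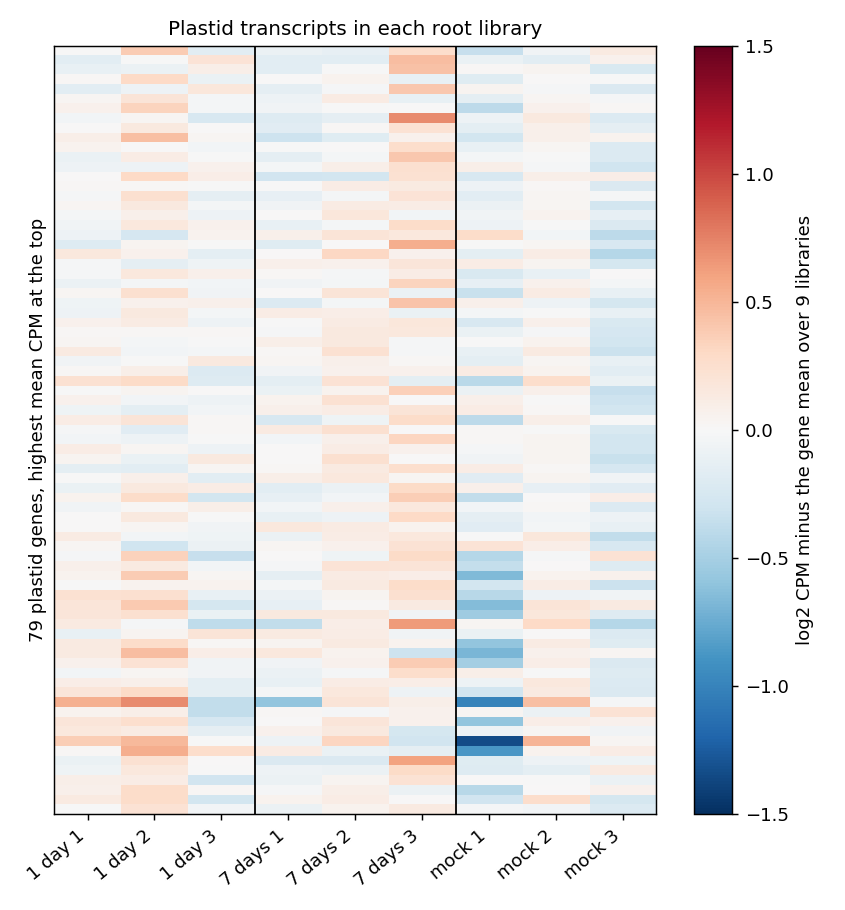
Log2 CPM of each of the 79 plastid genes with a mean of at least 10 CPM, minus the gene's mean over the 9 libraries; rows are genes by mean level, columns are libraries, and lines divide the groups. Mock 1 and mock 3 are the bluest columns, and 7 days 3 and 1 day 2 the reddest. Over the 88 tested members, the medians of these libraries were -0.11, -0.20, 0.16 and 0.11.

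Nuclear transcripts typical of green shoots also differed between libraries. Of 18 shoot marker genes, which encode parts of photosynthesis made in the nucleus, none passed the edgeR test in any of these comparisons. Their summed level was 440 to 688 CPM at 1 day, 418 to 938 CPM at 7 days and 463 to 522 CPM in mock. In every library 11 of them made up most of it, with a sum between 418 and 843 CPM. The other 7, among them the carbonic anhydrases CA1 and CA2 and the Rubisco small subunit RBCS2B, fell under 1 CPM in some libraries. Their sum was 1.36, 2.33 and 61.8 CPM at 1 day, 0.789, 1.07 and 94.6 CPM at 7 days and 31.9, 0.943 and 36.2 CPM in mock. CA1 was at 0 in 1 day replicate 2, 7 day replicate 2 and mock replicate 2, and between 5.22 and 12.0 CPM in the 4 libraries with the high sums. In 7 day replicate 3, with the highest sum of the 7, the plastid share was 2.41% and the median log2 deviation of the tested members was 0.16. For the other libraries with high sums, these values were 2.05% and -0.02 in 1 day replicate 3. They were 1.81% and -0.11 in mock replicate 1, and 2.00% and -0.20 in mock replicate 3. In the 5 libraries with low sums, the share lay between 1.91 and 2.28% and the median between -0.03 and 0.11. Root markers (COBL9, EXPA7, PLT1, SHR, SCR, CASP1 and WOX5) summed to 309 to 314 CPM at 1 day, 243 to 320 CPM at 7 days and 295 to 339 CPM in mock. The lowest of these sums was in 7 day replicate 3, but the root markers did not all go the same way there. CASP1, EXPA7 and COBL9 had their lowest values in that library, at 108, 43.2 and 28.3 CPM. SHR and WOX5 had their highest, at 29.2 and 1.05 CPM, and PLT1 and SCR lay between, at 8.39 and 24.7 CPM.

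Without the 4 libraries with high sums of the 7 markers, a choice made after their values were seen, mock is replicate 2 alone. The median log2 fold change of the tested members was then 0.01 at 1 day and -0.03 at 7 days. The members above 0 numbered 48 of 89 at 1 day and 34 of 89 at 7 days. The median at 1 day was thus still above 0, though smaller, and the one at 7 days lay below 0. The plastid share differed from mock by 0.102 percentage points at 1 day and by -0.0953 at 7 days. This choice also takes out the 2 mock libraries with the lowest member medians, so these values describe the other 5 libraries and do not test the direction. Whether shoot tissue in these libraries had a part in the plastid levels was not tested.

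Nuclear genes for plastid transcription were read from the same test, as a list of sigma factors, phage-type polymerases and PEP-associated proteins. The list has 20 genes, of which 19 were tested, and includes MGP3, the polymerase of mitochondria, which is left out of the counts given here. Of the other 18 tested genes, 1 was called at 1 day, lower than in mock, where 0.158% of all tested genes were called and 0.148% were called lower. At 1 day 10 of the 18 lay above 0 and 8 below, with a median log2 fold change of 0.03, and 49.7% of all tested genes lay above 0. At 7 days, 0 were called by edgeR, and 14 lay above 0 and 4 below, with a median of 0.15, against 0% called and 50.3% above 0 among all tested genes. Between 7 days and 1 day, 0 were called by edgeR, with 15 above 0 and 3 below, against 0% called and 50.5% above 0 among all tested genes. Several genes of the list, such as PTAC3, PTAC2, PTAC12 and PTAC6, were highest of all 9 libraries in 7 day replicate 3, a shallow library. PTAC3 was at 11.1, 8.92 and 18.4 CPM in the 7 day libraries and 13.1, 10.1 and 10.4 CPM in mock. Others, such as FSD3, MURE and SIG1, were not highest there. Counts for this list without that library were not taken.

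The gene called at 1 day was SIG5 (SIGE in the reference, AT5G24120), a sigma factor that guides PEP to a light-responsive plastid promoter. It was at 20.2, 26.5 and 24.8 CPM in the 1 day libraries, 30.4, 39.4 and 34.9 CPM in the 7 day libraries and 53.1, 110 and 73.6 CPM in mock. All treated libraries lay below all mock libraries, as they did in 1.96% of all tested genes. SIG5 fell by 1.74 on the log2 scale at 1 day (SE 0.23, edgeR adjusted p = 0.0240). At 7 days its log2 fold change was -1.18 (SE 0.22, edgeR adjusted p = 0.460, DESeq2 adjusted p = 0.0015). With the carbenicillin libraries pooled it fell by 1.46 (SE 0.19, edgeR adjusted p = 0.0191), where 0.117% of all tested genes were called and 0.112% were called lower. The call at 1 day was lost in 4 of the 9 fits without 1 library, those without 1 day replicate 1, 2 or 3 and without mock replicate 3, with adjusted p-values up to 0.246 and the log2 fold change at -1.63 or lower. The pooled call was also lost in 4, those without 1 day replicate 1 or 2, 7 day replicate 1 or mock replicate 3, with edgeR adjusted p-values up to 0.136.

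Of the other sigma factors, SIG4 had too few counts for the test, and none of the rest was called. SIG1 (SIGA) averaged 15.6 CPM at 1 day, 16.2 CPM at 7 days and 19.9 CPM in mock. The phage-type polymerase SCA3, which transcribes the plastid genome, averaged 21.8 ± 2.36 CPM at 1 day, 24.8 ± 3.17 CPM at 7 days and 22.4 ± 4.80 CPM in mock (SD, n = 3 each). Of the 12 PEP-associated proteins, which include the iron superoxide dismutases FSD2 and FSD3 and MURE, a relative of a bacterial cell wall enzyme, none was called. They lay above 0 in 8 and below in 4 at 1 day, with a median log2 fold change of 0.05, and above 0 in 10 and below in 2 at 7 days, with a median of 0.15. MURE averaged 20.4 CPM at 1 day, 21.5 CPM at 7 days and 20.7 CPM in mock.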

How the data were processed

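RNA of roots was measured in 9 libraries of a stranded total RNA kit, 3 for each of 1 day carbenicillin, 7 days carbenicillin and mock. The authors deposited raw read counts per gene, 1 column a library. Per the submitters' processing notes, FastQC, cutadapt and edgeR were used. For the aligner, counter, strand setting, genome build and depletion of ribosomal RNA, nothing is stated in the labels or the file, so antisense and copied genes are uncertain. The 2 blank lines of the table were left out.

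Members and gene lists were chosen with earlier results of these data known. Counts were fitted with edgeR 4.0.16 (R 4.3.3, filterByExpr, TMM, quasi-likelihood test, all 9 libraries, Benjamini-Hochberg adjustment over all 19580 tested genes, called under 0.05). The plastid share was tested by exact permutation over libraries in Python 3.11.15. DESeq2 1.42.0 was an alternative. The edgeR fit was also run on simulated counts, drawn independently for each gene and library. Those counts hold no pattern shared between libraries, and no result here rests on them. Intervals cover the spread between libraries.

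The planned grouping by gene function, the ratio of PEP to NEP genes, the summing of inverted-repeat copies and the per-length levels were not run, since no name or position was found for most identifiers, and no sequence is shown. Named are the described members, the 2 with the most counts among the rest, in each comparison the 5 with the lowest p in each direction, and those around the minimum; others were picked after their values were seen. The gene list of plastid transcription was to drop genes whose name did not match the RefSeq table (28009 of 28775 genes have an entry there). After seeing that the table often uses another symbol, these, and PSAD2 among the shoot markers, were kept by identifier, and only AT5G15700, which has no symbol, was dropped.

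Same-numbered libraries of 7 days and 1 day deviated together (correlations of 0.205, 0.257 and 0.245 over genes), while those of 1 day and mock (0.003, 0.339 and -0.141) and of 7 days and mock (-0.087, 0.423 and -0.187) did not all do so. Pairs of unlike number ran from -0.2 to 0.028 between 7 days and 1 day. With mock, pairs of unlike number ran from -0.379 to 0.36. Mock replicate 1 was at 0.36 with 1 day replicate 3 and at 0.327 with 7 day replicate 3, all shallow libraries. The pairing comes from the numbers in the labels, not from a stated design, and this check does not settle it. No pair of libraries of a group agreed within sampling noise (chi-square per degree of freedom 10.1 to 32.1).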

Additional observations from a re-analysis of the deposited data

Results flagged for a closer look

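Over the 6 carbenicillin libraries, 28 quantities were examined for a single library far from the others (Dixon's ratio of the gap to the nearest library over the whole range, past its 95% limit), which chance gives in about 1 of 20. There were 3 such values. ATCG00430 was highest in 7 day replicate 3, at 33.1 CPM, with the nearest library at 28.3 CPM. ATCG00640 was lowest in 1 day replicate 3, at 19.2 CPM, with the nearest at 24.5 CPM. ATCG00010 was highest in 1 day replicate 3, at 1.70 CPM, with the nearest at 0.872 CPM. All 3 values were in shallow libraries with high sums of the 7 shoot markers, and the part of depth or tissue in them was not tested.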

How the results depend on the processing

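Under 22 alternative settings (scaling, filter, test, member minimum, threshold, libraries) no member was called in any comparison. Leaving out each library in turn, the median log2 fold change lay between 0.07 and 0.16 at 1 day, 0.09 and 0.21 at 7 days, -0.04 and 0.08 for 7 days against 1 day, and 0.08 and 0.17 for all carbenicillin libraries against mock. The members above 0 numbered 59 to 77, 58 to 82, 38 to 65 and 73 to 84 in the same order, and the difference in plastid share was 0.0985 to 0.229, 0.0163 to 0.264, -0.156 to 0.0916 and 0.0927 to 0.223 percentage points. Without the 4 libraries with high sums of the 7 shoot markers, chosen after seeing the data, the medians were 0.015, -0.030, -0.048 and 0.0010. The members above 0 were then 48, 34, 32 and 47, and the share differed by 0.102, -0.0953, -0.197 and 0.0034 percentage points. This choice leaves 1 mock library and takes out the 2 mock libraries with the lowest medians. Without the 3 shallow libraries the medians were 0.11, 0.049, -0.048 and 0.086, the members above 0 were 77, 59, 32 and 68, and the share differed by 0.139, -0.0579, -0.197 and 0.041 percentage points. The cause was not tested.

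With the replicate number as a block, the medians were 0.12, 0.14, 0.04 and 0.12 and 0 members were called; the block on the 6 carbenicillin libraries, added after seeing the data, gave 0.04 with 52 members above 0. The block changed no call of a member. The differences in share are the same under the block by construction, since pairing by replicate number leaves the difference of means unchanged. At 1 day it was 0.173 percentage points, and the 1 day share lay above the mock share of the same number in every pair. An exact permutation test that flips signs within these pairs gave p = 0.25. That is the smallest p it can give with so few pairs, so it cannot decide whether the share differed.

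Of 67 fold changes of named members, none of them called, 35 kept their sign in every setting and 32 changed it in at least 1. The signs that changed without the 3 shallow libraries were these: for 1 day against mock the log2 fold change was 0.10 in ATCG00660, -0.035 in ATCG00490, 0.0043 in ATCG00640. For 7 days against mock it was -0.15 in ATCG00020, -0.11 in ATCG00490, 0.21 in ATCG00010. For 7 days against 1 day it was -0.048 in ATCG00430, -0.046 in ATCG00660, -0.078 in ATCG00490. For all carbenicillin libraries against mock it was 0.079 in ATCG00660, -0.074 in ATCG00490, 0.028 in ATCG00010, 0.023 in ATCG00160. Without the 4 libraries with high sums of the 7 shoot markers, for 1 day against mock the log2 fold change was -0.0042 in ATCG00430, -0.090 in ATCG00750, 0.16 in ATCG00640. For 7 days against mock it was -0.052 in ATCG00430, -0.024 in ATCG00530, -0.048 in ATCG00660, -0.056 in ATCG00020, -0.00096 in ATCG00490, -0.060 in ATCG01070, 0.082 in ATCG00010. For 7 days against 1 day it was -0.048 in ATCG00430, -0.045 in ATCG00660, -0.078 in ATCG00490. For all carbenicillin libraries against mock it was -0.028 in ATCG00430, -0.0079 in ATCG00530, 0.30 in ATCG00310, 0.13 in ATCG00640. With upper quartile scaling ATCG00660 was 0.0098 for all carbenicillin libraries against mock. Fits without 1 library gave these ranges where a sign changed. For 1 day against mock the range was -0.012 to 0.27 in ATCG00020, -0.059 to 0.081 in ATCG00430, -0.017 to 0.17 in ATCG00490, -0.68 to 0.16 in ATCG00620, -0.19 to 0.015 in ATCG00640, -0.12 to 0.046 in ATCG00660, -0.065 to 0.068 in ATCG00750, -0.16 to 0.017 in ATCG01110. For 7 days against mock the range was -0.60 to 0.11 in ATCG00010, -0.032 to 0.22 in ATCG00020, -0.27 to 0.0011 in ATCG00400, -0.011 to 0.16 in ATCG00430, -0.10 to 0.25 in ATCG00490, -0.061 to 0.074 in ATCG00660, -0.017 to 0.087 in ATCG00670. For 7 days against 1 day the range was -0.19 to 0.11 in ATCG00020, -0.035 to 0.13 in ATCG00430, -0.18 to 0.17 in ATCG00490, -0.11 to 0.051 in ATCG00530, -0.027 to 0.11 in ATCG00660, -0.17 to 0.025 in ATCG00670, -0.23 to 1.51 in ATCG01310. For all carbenicillin libraries against mock the range was -0.50 to 0.21 in ATCG00010, -0.16 to 0.058 in ATCG00160, -0.64 to 0.13 in ATCG00310, -0.025 to 0.11 in ATCG00430, -0.0050 to 0.18 in ATCG00490, -0.15 to 0.018 in ATCG00640, -0.088 to 0.047 in ATCG00660.

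Settings planned for functional groups, for the ratio of PEP to NEP genes and for summed inverted-repeat copies were not run, for want of gene names. SIG5 was below mock in every setting and passed at 1 day in 15 of 19. With 3 libraries a group, members in the lower set have too few counts for differences of this size to be detectable. In the upper set, the median standard error of 0.14 was as large as the median log2 fold changes against mock, 0.11 and 0.14. The lack of calls there does not show that levels were unchanged.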
